A study of Mus musculus with 6 samples.

Results

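Ccl11 Penk fibroblasts were cells of the mouse aortic preparations in which transcripts of Ccl11, Penk, Srpx and Steap4 together outnumbered those of 4 other sets of fibroblast genes. A fibroblast was a cell with at least 300 genes, under 20% of its unique molecular identifiers (UMIs, each standing for a captured transcript) from mitochondrial genes, at least 4 UMIs of Pdgfra, Dpt and Lum together, and no UMI of the blood cell gene Ptprc or the endothelial gene Pecam1. Members were chosen by measured counts: a fibroblast was a member when the 4 markers summed to at least 3 UMIs and to more than each rival sum. The rival sums were Pi16, Cd248, Dact2 and Pla1a, then Thbs4, Cilp, Angptl1 and Dkk2, then Mmp3, Meox1, Adamtsl2 and Ccl19, and last Spon2, Col23a1, Faim2 and Adh7. Of 59413 cells kept, 17145 were fibroblasts by this rule and 2600 were members, which is 15.2% of the fibroblasts. The rival sums won 8383 Pi16 Cd248 fibroblasts, 1075 Thbs4 Cilp Angptl1 fibroblasts, 1964 Mmp3 Meox1 Ccl19 fibroblasts and 543 Spon2 Col23a1 fibroblasts, and 2580 fibroblasts had no winning sum.

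The samples came from aortas of C57B/6J mice aged 18 weeks, 3 samples on a normal diet (labelled Control) and 3 on a high-fat diet. The labels name no genetic change or drug in either group, and give neither the length nor the make-up of the diets. They do not say that each sample came from a separate animal, and each p-value below therefore reflects sample-to-sample spread, part of which may be technical.

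Fibroblasts of the outer aortic wall, the adventitia, make its collagen and elastic matrix and signal to immune cells. Ccl11 encodes eotaxin, a secreted chemokine that draws eosinophils through the receptor CCR3, and Penk encodes proenkephalin, the precursor of the opioid peptides called enkephalins. Srpx encodes a secreted protein with sushi repeats, and Steap4 a membrane reductase of iron and copper that responds to inflammatory cytokines and feeding.

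The deposited samples held 41388034 to 83886418 UMIs and 6552 to 16568 kept cells. Members numbered 220, 683 and 436 in control 1, 2 and 3 and 395, 494 and 372 in high-fat diet 1, 2 and 3, with median UMIs per member of 3866.5 to 5477.5. Their summed counts per sample, the values tested below, were 1252149 to 3096695 UMIs. Any pair of samples shared between 0.397% and 1.21% of the smaller sample's barcodes, and among members 1 barcode was shared in each of 2 pairs of samples. A doublet caller marked 45 members (1.73%), against 1380 of all kept cells (2.32%).

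Marker sums describe the members and are no independent check of the fibroblast label. The rule itself required UMIs of Pdgfra, Dpt and Lum and left out cells with Ptprc or Pecam1. The summed level of 10 general fibroblast genes, among them Col1a1, Col3a1 and Dcn, was 28439 to 52280 CPM (counts per 1000000 UMIs of the members of a sample). The same sum of 10 markers was 2212 to 4302 CPM for smooth muscle, 530 to 1563 CPM for macrophages and 99.5 to 190 CPM for endothelial cells, and that of 8 pericyte markers was 321 to 608 CPM. The sum of 6 markers of red blood cells ran from 589 CPM in control 1 to 6345 CPM in control 2, against 1678 to 11103 CPM in the other fibroblast classes. None of these sums was at 0 in any sample.

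Some samples stood apart in other programmes. Members of control 3 and high-fat diet 3 carried 374 and 300 CPM of posterior Hox genes, which mark position along the body axis, against 12 to 31.0 CPM in the other samples. Clock output genes summed to 766 and 532 CPM in control 2 and 3 against 188 to 233 CPM elsewhere, and skeletal muscle genes to 2893 CPM in control 1 and 925 CPM in high-fat diet 2 against 12.9 to 99.2 CPM elsewhere. Both lists, like the Hox list, were drawn up after values of these samples were known.

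Ccl11 lies at chr11:82057823-82062955 on the plus strand (mm10, GENCODE vM21). The gene of another chemokine, Ccl2, lies before it on the same strand, at chr11:82035571-82037453. Penk lies at chr4:4133531-4138819, Srpx at chrX:10037977-10117709 and Steap4 at chr5:7960457-7982213, of which Penk and Srpx are on the minus strand. All 4 are protein-coding genes. Because they chose the cells, their levels are a description and were not tested between classes.

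Ccl11 stood at 843, 1153 and 1027 CPM in members of control 1, 2 and 3 and at 900, 1025 and 1265 CPM in those of high-fat diet 1, 2 and 3. Averaged over the other 4 classes it stood between 75.1 and 398 CPM in the 6 samples. All members' levels lay above those means, and the nearest single class was Pi16 Cd248 fibroblasts of control 3 at 724 CPM. Penk stood at 867, 744 and 1758 CPM in the controls and at 609, 978 and 656 CPM on the high-fat diet, against 71.7 to 189 CPM over the other classes. Control 3 was the highest in Penk, and the highest single rival was the Thbs4 Cilp Angptl1 class of high-fat diet 2 at 378 CPM.

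Srpx ran from 303 to 394 CPM in members and from 76.8 to 124 CPM in the other classes. Steap4 ran from 189 to 325 CPM against 25.9 to 74.7 CPM. Neither overlapped across the samples, and both were lower in CPM than Ccl11 and Penk, with no correction for gene length since these libraries count the 3′ ends of transcripts.

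**Figure D1:**
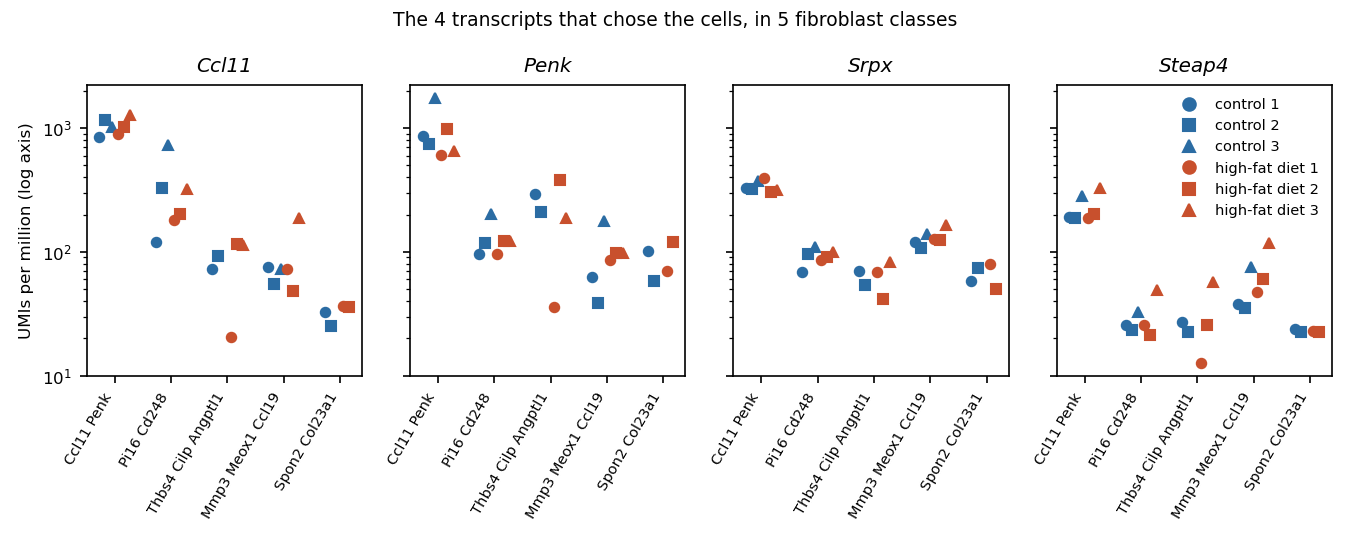
Levels of the 4 marker genes (CPM, log axis) in each fibroblast class, with 1 point per sample (circle, square and triangle for samples 1, 2 and 3, blue for control and orange for high-fat diet) and classes under 20 cells left out. Members of all 6 samples lie above the other classes, most narrowly for Ccl11 in Pi16 Cd248 fibroblasts of control 3 (724 CPM).

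Single members mixed the markers. Both Ccl11 and Penk had a UMI in 1590 members (61.2%), all 4 markers in 619 (23.8%), and 154 members (5.92%) had no UMI of any of the 16 rival genes. Ccl11 had the highest count of the 4 in 1187 members, Penk in 891, Srpx in 225 and Steap4 in 89, with 208 ties. Members led by Penk made up 37.7%, 27.8% and 52.3% of control members and 25.3%, 42.5% and 21.5% of members on the other diet. The balance of the markers thus varied within each diet, and the groups overlapped.

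At least 1 Ccl11 UMI was seen in 73.1% to 89.5% of members, in 22.6% to 48.8% of cells of the other classes, and in 2.40% of 1917 and 3.88% of 2088 B lymphocytes of control 2 and 3, cells that should lack it. Penk was seen in 71.5% to 89.9%, 27.6% to 39.0%, and 2.03% and 6.75% of the same cells. After each cell was thinned to 2000 UMIs, Ccl11 was seen in 63.4% to 77.6% of members, 15% to 40.8% of the other classes and 1.68% and 1.91% of B lymphocytes. The other fibroblast classes thus lay above the B lymphocytes of both samples. These were cells with at least 3 UMIs of Cd79a, Cd79b and Ms4a1 together and no UMI of Pdgfra, Dpt or Lum. That choice leaves out cells with stray transcripts of the fibroblast genes, so the B lymphocyte level may lie below the true background. How much of the Ccl11 signal in the other classes was their own was not tested. Cells just inside the threshold, with a marker sum of 3, held 160 to 483 CPM of Ccl11 and 190 to 373 CPM of Penk. Cells just outside it, with a sum of 2, held 32.0 to 303 CPM and 94.6 to 268 CPM.

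Members made up 9.08%, 12.6% and 39.6% of fibroblasts in control 1, 2 and 3, and 13.0%, 19.0% and 14.6% in high-fat diet 1, 2 and 3. Control 3 was far above the other samples, and the groups overlapped. The means were 20.4% ± 16.7 and 15.5% ± 3.11 (SD, n = 3 each), a difference of -4.86 percentage points (exact two-sided permutation p = 1, adjusted p = 1 over the 5 classes). Without control 3 the difference was 4.72 points (exact permutation p = 0.2) with every high-fat diet sample above controls 1 and 2. As a share of all cells, with control 3 kept, the difference was 0.391 points (exact permutation p = 0.7). The smallest p that 3 against 3 samples allow is 0.1.

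Barcode suffixes, which by the usual format mark separate droplet wells, split each sample further. Members with suffix 1 were 11.1%, 13.1% and 58.7% of fibroblasts in the controls and 14.4%, 12.1% and 13.8% on the high-fat diet, and those with suffix 2 were 4.42%, 12.1% and 37.1%, and 12.1%, 23.8% and 15.9%. Control 3 was the highest sample in both, and the groups overlapped in both.

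**Figure D2:**
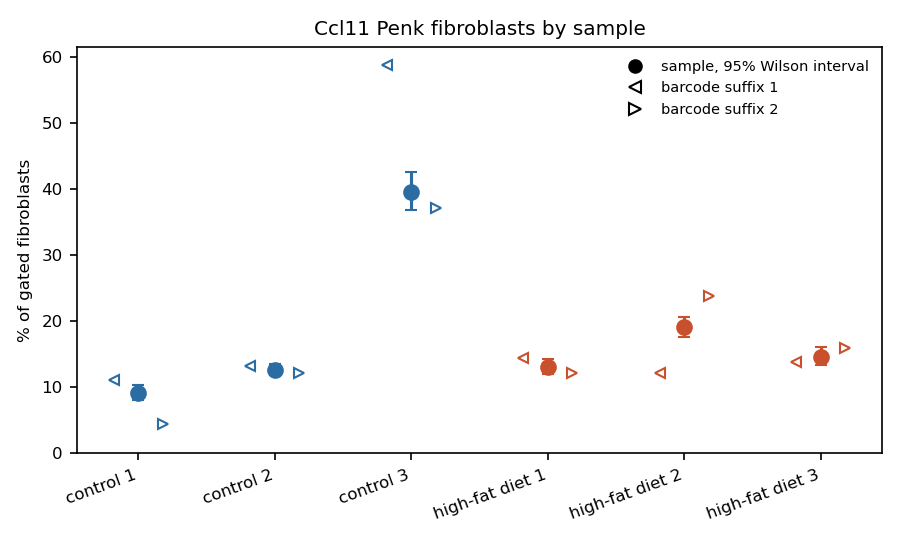
Members as a percent of fibroblasts in each of the 6 samples, with 95% Wilson intervals (counting error only). Open triangles give the same share within each barcode suffix, pointing left for the lower suffix and right for the higher. Control 3 stands at 39.6% and the other samples between 9.08% and 19.0%.

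Which genes other than the markers set members apart was asked by comparing their summed counts with those of the other 4 classes of the same samples, each class weighing the same. Of 11199 genes tested without the 25 genes of the rule, 573 (5.12%) were higher and 426 (3.8%) lower in members (edgeR quasi-likelihood test with the sample as a block, adjusted p under 0.05), and 2290 had an unadjusted p under 0.05. Chemokine, complement and fat cell genes stood among the higher genes, and elastic fibre genes among the lower. The classes were drawn from the same cells and the markers were known to separate them, so these counts describe the class and are no independent evidence of it. Against single classes, 626 genes (5.59%) were higher and 624 (5.57%) lower than in Pi16 Cd248 fibroblasts, and 342 (3.05%) and 320 (2.86%) than in the Thbs4 Cilp Angptl1 class. The counts were 541 (4.83%) and 545 (4.87%) against the Mmp3 Meox1 Ccl19 class and 609 (5.44%) and 649 (5.8%) against the Spon2 Col23a1 class. Against each of the 4 classes, 71 genes were higher and 24 lower. Several genes named below were not among the 71, such as Cxcl14, Il1r1, Csf1, C4b, Fst, Igf1 and Cp. The number of lower genes fell to 220 without high-fat diet 1, to 262 without control 2 and to 185 without control 2 and 3.

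Members differed from the other classes in several chemokines besides Ccl11. Of 13 tested, 5 were higher (Cxcl9, Cxcl13, Cxcl14, Cxcl12 and Cxcl1) and 0 lower, with a median log2 difference of 0.30 against -0.00 over all genes. Cxcl12, which holds and attracts leukocytes through the receptor CXCR4, stood at 776, 604 and 1247 CPM in members of the controls and 866, 623 and 1102 CPM in those of the high-fat diet. Over the other classes it stood at 257, 295 and 556 CPM, and 273, 314 and 510 CPM. Each member level lay above all of these means over the other classes, a log2 difference of 1.51 (SE 0.14, edgeR adjusted p = 9.02e-07). CPM levels given for the other classes are such means, and a single class can lie higher or lower. The difference was 1.99 against Pi16 Cd248, 2.40 against Thbs4 Cilp Angptl1 and 1.13 against Spon2 Col23a1 fibroblasts, but 0.52 against Mmp3 Meox1 Ccl19 fibroblasts, where it did not pass the test (edgeR adjusted p = 0.094).

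Cxcl13, which attracts B lymphocytes, stood at 517, 195 and 1490 CPM in control members and 339, 434 and 180 CPM in high-fat diet members. The other classes stood at 61.9, 39.5 and 790 CPM, and 88.8, 100 and 35.8 CPM. Control 3 was highest in both, and members were above the other classes within every sample, by 2.64 on the log2 scale (SE 0.35, edgeR adjusted p = 5.45e-05). Against Pi16 Cd248 fibroblasts alone the difference of 1.27 did not pass (edgeR adjusted p = 0.0658). Cxcl14, a chemokine of barrier tissues, was 98.2 to 154 CPM in control members and 117 to 528 CPM in high-fat diet members, 2.36 above the other classes on the log2 scale (SE 0.34).

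Receptors and signals of inflammation moved the same way. Of 20 cytokine and NF-kappaB genes tested, 5 were higher and 0 lower (Il1r1, Socs3, Csf1, Tnfaip6 and Nfkbia; median 0.37). Il1r1, the signalling receptor of interleukin 1, was 61.4 to 107 CPM in members and 30.7 to 52.9 CPM in the other classes, a log2 difference of 1.09 (SE 0.097), and it was higher in members of 6 of 6 samples. Csf1, the growth factor of macrophages, was higher by 0.66 (SE 0.11). Vcam1, an adhesion molecule for leukocytes that is named in the title of the study, differed by 0.28 (edgeR adjusted p = 0.303). Klf2, a transcription factor also named there, differed by -0.12 (edgeR adjusted p = 0.739).

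Complement, the cascade of plasma proteins that tags microbes and debris, was higher in 8 of 15 genes tested (C2, C7, C3, C4b, C1s1, Cfb, C1ra and Serping1) and lower in 1, the inhibitor Cd59a, with a median of 0.33. C3, its central component, stood at 1426, 1709 and 1825 CPM in control members and 1209, 1360 and 973 CPM in high-fat diet members, against 589 to 991 CPM in the other classes. Within each sample members were higher, by 1.03 on the log2 scale (SE 0.11, edgeR adjusted p = 3.28e-06). C4b, a component of the classical pathway, was 219 to 392 CPM against 123 to 255 CPM, a difference of 0.92 (SE 0.15). Without control 2 and 3, 8 of 15 were again called higher and 0 lower.

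Some interferon and antigen presentation genes were higher in members. All 16 MHC class I genes tested had positive differences and 7 were called (Psmb9, Psmb8, H2-Q4, H2-K1, H2-D1, Psme2 and Psmb10; median 0.30). Of 21 interferon-induced genes 4 were called higher and 0 lower (Ifitm1, Isg15, Gbp2 and Ifitm3). Ifi205 and Ifi204, a pair of neighbouring paralogs of the interferon-inducible family whose reads may be hard to tell apart, were higher by 1.68 (SE 0.24) and 1.64 (SE 0.19).

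Genes of fat cell commitment were among those higher in members. Of 18 tested, 11 were higher and 1, Zfp423, was lower, with a median of 0.64. Lpl, the lipase that frees fatty acids from circulating triglycerides, stood at 470, 658 and 889 CPM in control members and 662, 562 and 896 CPM in high-fat diet members. The other classes stood at 123, 164 and 335 CPM, and 134, 125 and 330 CPM. The members' levels did not overlap these means, the log2 difference was 2.13 (SE 0.12, edgeR adjusted p = 3.68e-10), and Lpl was called against each of the 4 classes.

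Regulators of the fat lineage were present at low levels. Pparg, its master transcription factor, was 18.4, 15.2 and 17.5 CPM in control members and 4.66, 4.52 and 11.8 CPM in high-fat diet members, against 1.59 to 3.76 CPM in the other classes (2.30, SE 0.32, edgeR adjusted p = 9.55e-06). Cebpa, another factor of that lineage, was higher by 1.25 (SE 0.18), Ebf2, a factor of brown and beige fat precursors, by 1.19 (SE 0.15), and Ebf1 by 0.85 (SE 0.14). Dlk1, a marker of preadipocytes that is lost on maturation, was higher by 1.11 (SE 0.29), and Apod, a lipid carrier, by 1.58 (SE 0.18). Apod did not set members apart from Spon2 Col23a1 fibroblasts, with a difference of -0.03. Pparg was called higher against each of the 4 classes, whereas Cebpa, Ebf2, Ebf1, Dlk1 and Apod were not.

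Transcripts of mature fat cells moved with these genes in some samples. The summed level of 7 adipocyte markers, among them Adipoq and Car3, was 141, 661 and 1317 CPM in control members and 91.7, 142 and 51.5 CPM in high-fat diet members, against 21.2 to 93.1 CPM averaged over the other classes. Members of control 2 and 3 were highest. In high-fat diet 3 members lay below that mean, at 51.5 against 93.1 CPM. Pi16 Cd248 fibroblasts alone stood above members in that sample, at 223 CPM, and in control 1, at 166 CPM. Fabp4, the fatty acid carrier of fat cells and some endothelium, was 351, 902 and 1612 CPM in controls and 345, 301 and 422 CPM on the high-fat diet, and its difference of 1.30 (edgeR adjusted p = 0.0231) shrank to 0.27 (adjusted p = 0.311) without control 2 and 3. In that fit, 7 of 17 commitment genes were called higher and 0 lower, Lpl at 2.19 and Cebpa at 1.02 among them, while Car3 (2.11) and Adipoq (2.52) did not pass and Pparg was not tested. The part of fat cell RNA in the higher genes was not tested beyond this.

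Part of the elastic fibre list was lower. Of 20 elastic fibre genes tested 7 were lower (Mfap4, Eln, Ltbp2, Mfap5, Fbn1, Loxl1 and Ltbp3) and 0 higher, with a median of -0.28, and 2 of 20 were lower without control 2 and 3 (Mfap4 and Loxl1). Eln, the gene of elastin, stood at 653, 345 and 227 CPM in control members and 361, 298 and 270 CPM in high-fat diet members, against 686 to 1767 CPM over the other classes. All members' levels lay below all of these means over the other classes, by -1.44 on the log2 scale (SE 0.28, edgeR adjusted p = 0.00254). Against Pi16 Cd248 fibroblasts alone the elastin difference of -0.97 did not pass (adjusted p = 0.0604).

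Mfap4, a microfibril protein, was 345, 382 and 46.9 CPM in control members and 191, 244 and 229 CPM in high-fat diet members, against 463 to 1292 CPM. It was lower than in each of the 4 classes, by -1.92 against their mean (SE 0.24). Fbn1, the backbone of microfibrils, was 210 to 284 CPM against 304 to 569 CPM (-0.57, SE 0.17). Collagens did not move as a list, with 3 of 21 called higher and 2 lower, and of 18 basement membrane genes 3 were higher (Nid2, Col4a1 and Col4a2) and 1 lower (Col4a6). Pericyte markers moved with these genes, with 3 of 8 called higher (Vtn, Higd1b and Notch3, median 0.49). Their summed level was 321 to 608 CPM in members against 268 to 419 CPM averaged over the other classes. In control 2 members lay below that mean, at 321 against 327 CPM. The Mmp3 Meox1 Ccl19 class alone stood at 485 to 772 CPM, above members in every sample, so this sum was not particular to members. The part of pericyte RNA in the basement membrane genes was not tested.

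Secreted regulators of growth split by family. Of 18 Wnt genes 5 were higher (Sfrp1, Rspo3, Wnt11, Wnt5a and Rspo1) and 2 lower (Wnt2 and Dkk3). Sfrp1, which binds Wnt ligands outside the cell, was 419 to 668 CPM in members of 5 samples and 204 CPM in control 3, a difference of 1.50 (SE 0.19), but 0.22 (edgeR adjusted p = 0.779) against the Thbs4 Cilp Angptl1 class alone. Of 21 BMP pathway genes 4 were higher and 3 lower. Fst, the activin antagonist follistatin, was 135 to 416 CPM against 70.1 to 133 CPM in the other classes (1.24, SE 0.22), and Bmper, which modulates BMP outside the cell, was higher by 2.19 (SE 0.17), whereas the ligand Bmp4 was lower by -0.77 (SE 0.19). Igf1, the insulin-like growth factor, was 490 to 1094 CPM against 291 to 603 CPM (0.91, SE 0.14).

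Genes near Penk and Steap4 in function were looked up as well. Of 3 genes of opioid reception and prohormone processing that could be tested, Pam, the enzyme that amidates neuropeptides, was lower by -0.69 (SE 0.13), and the other two did not pass. Of 13 genes of iron and copper handling 4 were higher and 1, the reductase Cybrd1, was lower. Cp, which encodes the copper ferroxidase ceruloplasmin, was 224 to 470 CPM in members against 87.1 to 216 CPM (1.43, SE 0.11), and Steap3, a reductase of the Steap family, was higher by 0.99 (SE 0.15).

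The remaining genes with the largest differences had other roles. Higher were Sult1e1, which sulfates and inactivates oestrogens (2.41, SE 0.20), Cyp1b1, a cytochrome P450 (1.78, SE 0.098), Sned1, a matrix protein (1.57, SE 0.085), and Plac8 (1.52, SE 0.18). Lower were Dio2, which activates thyroid hormone (-2.21, SE 0.48), Wisp2 of the CCN family (-1.58, SE 0.26), the thrombin receptor F2r (-1.51, SE 0.26), the Wnt-related Dkk3 (-1.37, SE 0.20), the water channel Aqp1 (-1.35, SE 0.19) and S100a4 (-1.33, SE 0.16). Pamr1, Lbh, Itgbl1 and Pdgfrl were lower by between -1.27 and -1.09. Sult1e1, Cyp1b1 and Sned1 were called higher, and Wisp2 and S100a4 lower, against each of the 4 classes.

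**Figure D3:**
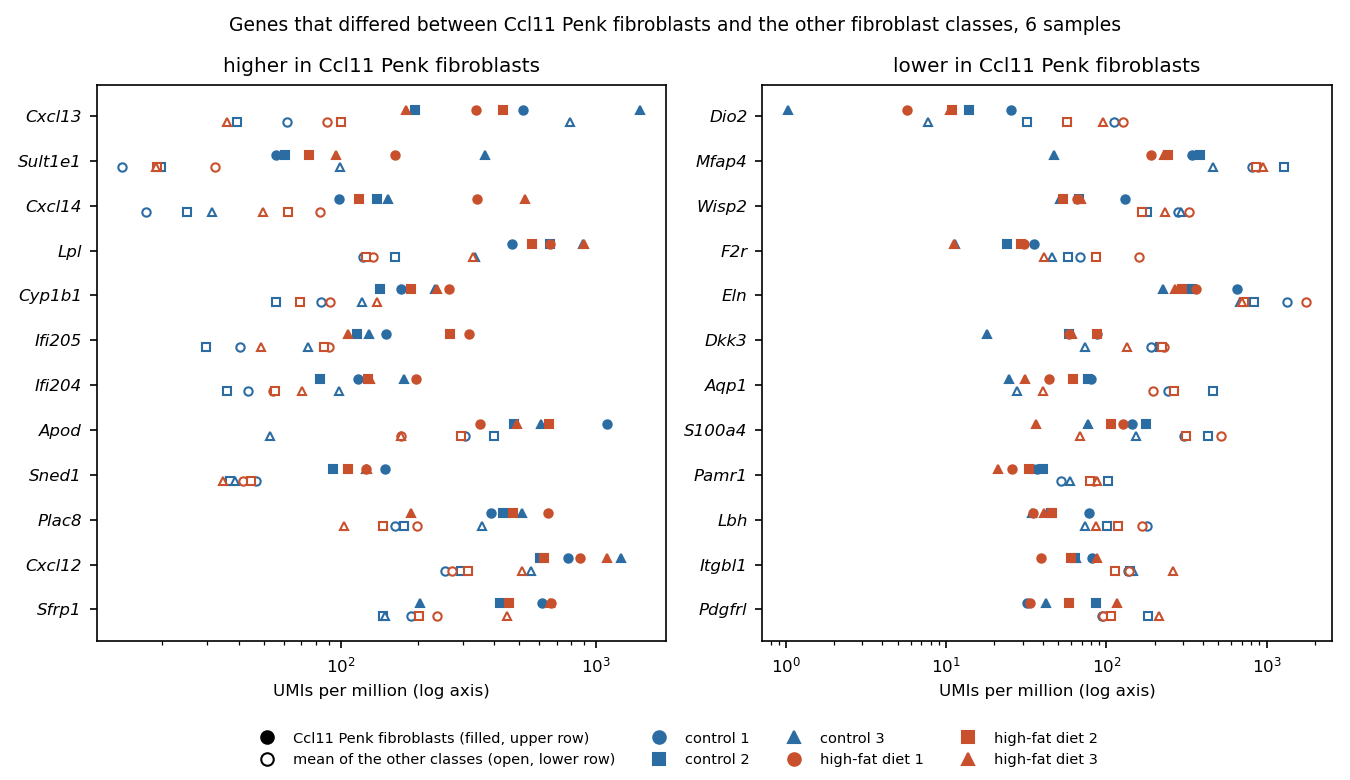
Levels (CPM, log axis) of the 12 higher and 12 lower genes with the largest differences, with filled symbols for members and open symbols for the mean of the other classes in the same sample, 1 symbol per sample. Within every sample the filled symbol lies on the side that the panel names, while for some genes, such as Cxcl13, the range over samples overlaps.

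Whether diet changed gene expression in members was asked over 3 samples per diet. Of 10312 genes tested, 6 (0.0582%) were higher on the high-fat diet and 0 (0.0%) lower by the edgeR quasi-likelihood test, with 976 at an unadjusted p under 0.05. DESeq2 called 31 (0.301%) higher and 18 (0.175%) lower. The groups did not overlap for 1034 genes (10.0%) that were higher and 533 (5.17%) that were lower. Of the 6 called genes 4 encode proteins of the endoplasmic reticulum that act in folding secreted proteins (Hspa5, Manf, Creld2 and Sdf2l1), and the other two were Alyref and Camk2n1.

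Hspa5 encodes BiP, the main chaperone of the endoplasmic reticulum. It stood at 349, 239 and 207 CPM in the controls and at 709, 985 and 1144 CPM on the high-fat diet. All high-fat diet samples lay above all controls, a log2 difference of 1.78 (SE 0.22, edgeR adjusted p = 0.0166). Manf, a secreted factor released under folding stress, stood at 157, 172 and 131 CPM against 431, 561 and 532 CPM, without overlap (1.65, SE 0.17, edgeR adjusted p = 0.01).

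Creld2, another resident of the same compartment, stood at 34.3, 31.3 and 27.8 CPM against 75.1, 109 and 104 CPM (1.55, SE 0.17, edgeR adjusted p = 0.0118). Sdf2l1, a cofactor of BiP, stood at 36.7, 41.7 and 61.3 CPM against 134, 181 and 156 CPM (1.67, SE 0.21, edgeR adjusted p = 0.0195). Neither gene overlapped between the diets. Alyref, which couples mRNA to nuclear export, stood at 24.0, 21.6 and 40.2 CPM against 102, 126 and 126 CPM (1.97, SE 0.23, edgeR adjusted p = 0.0141). Camk2n1, an inhibitor of the kinase CaMKII, stood at 126, 119 and 133 CPM against 334, 373 and 406 CPM (1.48, SE 0.14, edgeR adjusted p = 0.00778).

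Genes of this stress response often carry an ERSE, a promoter element bound by ATF6 and NF-Y. The 250 bases before the RefSeq start (GRCm38.p6) of 2 of the called genes are shown because each holds a match to the letters CCAAT, 9 bases of any kind and CCACG, on either strand, printed in capitals. The Hspa5 stretch is chr2:34771840-34772089 on the plus strand, and the Creld2 stretch is chr15:88819396-88819645 on the plus strand, where the match reads in the reverse orientation.
Hspa5: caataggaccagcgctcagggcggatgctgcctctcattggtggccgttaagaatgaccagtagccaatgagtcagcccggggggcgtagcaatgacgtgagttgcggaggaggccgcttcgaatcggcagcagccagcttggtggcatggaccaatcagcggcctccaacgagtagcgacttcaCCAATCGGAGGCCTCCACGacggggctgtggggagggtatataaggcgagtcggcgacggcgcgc
Creld2: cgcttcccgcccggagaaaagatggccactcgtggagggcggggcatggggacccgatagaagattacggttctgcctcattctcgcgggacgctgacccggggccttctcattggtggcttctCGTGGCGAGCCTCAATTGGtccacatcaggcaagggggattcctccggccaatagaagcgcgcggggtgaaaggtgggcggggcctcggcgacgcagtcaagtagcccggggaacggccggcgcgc
Of all 32851 promoters listed, 37 (0.113%) hold such a match, as do 7 of the 18 genes of the unfolded protein response list that have a promoter there (38.9%). The related ERSE-II, with the letters ATTGG, 1 base of any kind and CCACG on either strand, is in 10 promoters (0.0304%), among them Herpud1 as the 1 match of the same 18 genes. Alyref and Sdf2l1 have no match to either element in this window, and Manf and Camk2n1 had no entry among the promoters listed. A match is a run of letters and does not show that a factor binds there.

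The call of these 6 genes depended on single samples. Without high-fat diet 2 or without high-fat diet 3 no gene was called, without control 2 there was 1, which was among the 6, and without both samples numbered 3 there were 2, of which 1 was among the 6. Without control 1 there were 22 higher and 20 lower, with all 6 among them. The log2 difference of Hspa5 was 1.64 to 1.76 with each of control 2, control 3, high-fat diet 2 and high-fat diet 3 left out, where its edgeR adjusted p was 0.0583 to 0.15. In the wells with barcode suffix 2 alone it was 0.70 (adjusted p = 0.753), with control 1 at 621 CPM from 32 members and high-fat diet 1 at 275 CPM. The diets overlapped in those wells for Manf as well, at 273, 214 and 137 CPM against 242, 506 and 503 CPM, and for Creld2, at 103, 33.3 and 25.6 CPM against 45.0, 115 and 97.5 CPM. In the wells with suffix 1 alone the difference of Hspa5 was 2.33 (adjusted p = 0.0036), with 316, 223 and 250 CPM against 1098, 1544 and 1441 CPM.

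**Figure D4:**
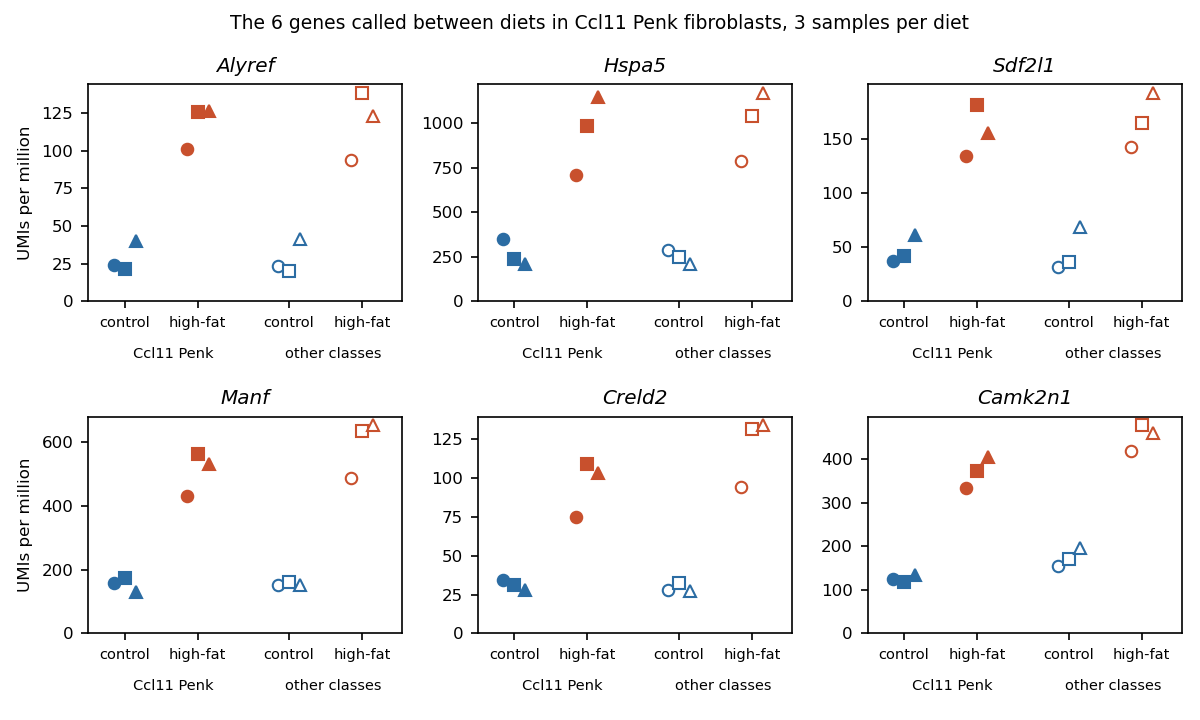
Levels (CPM, linear axes from 0) of the 6 genes called between the diets, with filled symbols for members and open symbols for the mean of the other fibroblast classes, and circle, square and triangle for samples 1, 2 and 3. In members all 3 high-fat diet samples lie above all 3 controls for each gene, and the other classes show the same order.

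Other genes of folding had positive differences that did not pass by edgeR and in part passed by DESeq2. Of 22 genes of the unfolded protein response, 4 were called higher and 20 had positive differences, with a median of 0.79 against 0.01 over all genes. Dnajc3, a co-chaperone, stood at 156, 121 and 140 CPM against 238, 256 and 258 CPM (0.79, edgeR adjusted p = 0.084), and Hsp90b1, the chaperone GRP94, at 385, 315 and 476 CPM against 674, 827 and 808 CPM (0.91, adjusted p = 0.129). DESeq2 called 9 of the 22 higher, adding Pdia6 (adjusted p = 0.00259), Hsp90b1 (0.00226), Dnajc3 (0.00336), Calr (0.00388) and Dnajb11 (0.0177) to the 4. Ddit3, Atf4 and Herpud1 of the same list differed by 0.01, -0.08 and 0.07. Of 19 heat shock genes, chaperones of the cytosol, 0 were called and 19 had positive differences (median 0.47), with Hspa8 at 539, 527 and 396 CPM against 910, 1013 and 1200 CPM (1.03, edgeR adjusted p = 0.113). DESeq2 called 5 of the 19 higher, Hspa8 among them.

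No other list held a gene called by edgeR with all samples. All 30 genes of the cytosolic ribosome had negative differences (median -0.20), as had all 16 of MHC class I (median -0.29) and all 30 of nuclear oxidative phosphorylation (median -0.12). Larger negative medians stood in other lists, among them B cell (-2.34), adipocyte (-1.88), skeletal muscle (-1.58), clock output (-1.24, with 3 of 11 genes positive) and MHC class II (-0.62). Some of these sums were high in few samples, such as skeletal muscle in control 1 and B cell markers in control 3. The part of RNA from other cells in these shifts was not tested. Of 18 genes of fat cell commitment 15 were negative (median -0.49), among them Pparg at -1.39 (edgeR adjusted p = 0.225). Cebpb, a transcription factor of that list which also acts in inflammation, went the other way, at 16.8, 16.1 and 62.9 CPM in the controls and 174, 180 and 136 CPM on the high-fat diet. The diets did not overlap, and the log2 difference of 2.28 (SE 0.59) was not called by edgeR (adjusted p = 0.357) but was by DESeq2 (adjusted p = 5.80e-05), and by edgeR without both samples numbered 3 (3.37, adjusted p = 8.32e-04). It was 0.65 in wells with suffix 1 (adjusted p = 0.945) and 3.37 in those with suffix 2 (adjusted p = 7.24e-06). The adipocyte marker sums given above were also lower on the high-fat diet than in control 2 and 3. By DESeq2 the adipocyte genes Car3 and Adipoq were called lower (adjusted p = 0.0427 and 0.0339), but not by edgeR, and their part in the fat cell genes was not tested. Further genes called by DESeq2 were Saa3 of the cytokine list and Jund of the immediate early list, which were higher, and the collagen genes Col1a1 and Col3a1, which were lower. Also called lower by DESeq2 were the clock genes Nr1d2, Per3 and Tef and the cartilage gene Col2a1. The clock output sum was 766 and 532 CPM in members of control 2 and 3 against 188 to 233 CPM elsewhere, control 1 included.

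The markers and 3 genes that set the class apart showed no called difference with diet. Ccl11 differed by -0.00 (SE 0.21), Penk by -0.66 (SE 0.35, edgeR adjusted p = 0.631; -0.16 without control 3, its highest sample, and -1.15 in wells with suffix 1), Srpx by -0.08 and Steap4 by 0.03. Cxcl12 differed by -0.08 (SE 0.30), Lpl by -0.01 (SE 0.27) and C3 by -0.56 (SE 0.21, adjusted p = 0.448). That these differences did not pass does not show that the levels were alike.

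Klf2 and Vcam1, the genes of the study's title, were measured in members too. Klf2 stood at 205, 163 and 220 CPM in the controls and 323, 493 and 362 CPM on the high-fat diet. The groups did not overlap, but the log2 difference of 0.94 (SE 0.18) did not pass the test over all genes (edgeR adjusted p = 0.12). DESeq2 called it (adjusted p = 0.00416). In wells with suffix 1 alone it was 0.10 (edgeR adjusted p = 0.963), with 207, 214 and 192 CPM against 168, 165 and 355 CPM, which overlapped, and in those with suffix 2 it was 1.51 (adjusted p = 0.0851). Vcam1 stood at 67.1, 107 and 79.4 CPM against 123, 91.2 and 103 CPM, which overlapped (0.23, adjusted p = 0.796).

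Whether the response to diet differed between members and the other fibroblast classes was tested by an interaction term. Of 11900 genes 0 were called (0.0%), with 439 at an unadjusted p under 0.05 and 0 by DESeq2. The diet differences of members minus those of the other classes were -0.17 (SE 0.22) for Hspa5, -0.27 (SE 0.14) for Manf, -0.40 (SE 0.17) for Creld2, -0.28 (SE 0.22) for Sdf2l1, -0.07 (SE 0.15) for Alyref and 0.15 (SE 0.21) for Camk2n1 on the log2 scale. The edgeR adjusted p was 1 for each. The rise of these genes on the high-fat diet was therefore not shown to be larger or smaller in members.

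How members varied among themselves was asked by comparing the cells whose highest marker was Ccl11 with those whose highest marker was Penk, within the same samples. Of 7899 genes tested, 97 (1.23%) were higher in Ccl11-led cells and 74 (0.937%) in Penk-led cells, with 874 at an unadjusted p under 0.05. DESeq2 called 26 and 31, of which 44 were also called by edgeR, and the calls of some genes named below depended on the setting. Another chemokine, basement membrane and pericyte genes were higher on the Ccl11 side, and genes of Wnt signalling and complement on the Penk side.

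Ccl2, the chemokine of monocytes and the neighbour of Ccl11, had the largest difference. It stood at 94.9, 41.2 and 120 CPM in Ccl11-led cells of the controls and 14.9, 74.8 and 526 CPM in those of the high-fat diet. In Penk-led cells it stood at 8.06, 2.24 and 15.5 CPM, and 10.7, 18.4 and 45.2 CPM. Ccl11-led cells were higher in 6 of 6 samples, by a ratio that was smallest in high-fat diet 1, and the log2 difference was 2.90 (SE 0.25, edgeR adjusted p = 1.19e-05). It was the 1 gene called of 9 chemokines tested.

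Pericyte markers were higher in Ccl11-led cells. Of 6 tested, 3 were called (Vtn, Notch3 and Ndufa4l2) and all had positive differences, with a median of 1.22. Vtn, the gene of vitronectin, was 57.6 to 231 CPM in Ccl11-led and 4.26 to 47.4 CPM in Penk-led cells, without overlap (2.16, SE 0.24, edgeR adjusted p = 5.43e-04). The sum of all 8 pericyte markers was 537, 287 and 652 CPM in Ccl11-led cells of the controls and 615, 439 and 687 CPM in those of the high-fat diet. In Penk-led cells it was 212, 188 and 374 CPM, and 375, 148 and 298 CPM. Ccl11-led cells were higher in 6 of 6 samples, and none of the defining markers was at 0.

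The pericyte marker Rgs5 was 31.1 to 237 CPM in Ccl11-led cells and 15.7 to 175 CPM in Penk-led cells (0.84, edgeR adjusted p = 0.147). Smooth muscle markers were positive in 10 of 10 genes, of which Myh11, the smooth muscle myosin, was called (0.55). Of 16 basement membrane genes 6 were higher (Lamb1, Col4a1, Hspg2, Col4a2, Lama4 and Nid1) and 1, Col4a6, was lower. Col4a1, a chain of type IV collagen, was 239 to 546 CPM against 145 to 365 CPM (0.62, SE 0.087). Basement membrane is also made by pericytes, and the part of pericyte RNA in these differences was not tested.

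Penk-led cells had higher levels of some genes of Wnt signalling. Of 9 Wnt genes 3 were higher in them (Rspo3, Dkk3 and Sfrp1) and 0 lower. Rspo3, which strengthens Wnt signals, stood at 82.6, 120 and 103 CPM in Penk-led cells of the controls and 63.9, 45.4 and 53.2 CPM in those of the high-fat diet. In Ccl11-led cells it stood at 47.5, 48.8 and 25.3 CPM, and 38.4, 40.8 and 15.6 CPM. Penk-led cells were higher within each sample, with a log2 difference (Ccl11-led minus Penk-led) of -1.13 (SE 0.18, edgeR adjusted p = 0.00117). Fzd1, a receptor of Wnt ligands, differed by -0.97 (SE 0.16). BMP pathway genes were called both ways, with 3 of 15 higher in Penk-led cells (Id1, Bambi and Id3) and 1 in Ccl11-led cells, Fst (0.46, SE 0.097). Id1, a target of BMP signals, differed by -0.95 (SE 0.18).

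The complement genes Cd59a (-1.34), Cfb (-0.64) and C1ra (-0.33) were higher in Penk-led cells. The collagen gene Col6a5 had the largest difference on this side (-1.50, SE 0.20), and its levels turned on control 3, where it was 404 CPM in Penk-led and 114 CPM in Ccl11-led cells against at most 34.6 CPM elsewhere. Peg3, an imprinted gene, stood at 53.3 to 95.4 CPM in Penk-led and 25.3 to 39.1 CPM in Ccl11-led cells, which did not overlap (-1.08, SE 0.15). Klf2 was lower in Ccl11-led cells by -0.51 (SE 0.084, edgeR adjusted p = 2.41e-04). Cxcl12 differed by -0.05 (adjusted p = 0.885), so the chemokine that set members apart from most other classes was not split between these cells by the test.

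**Figure D5:**
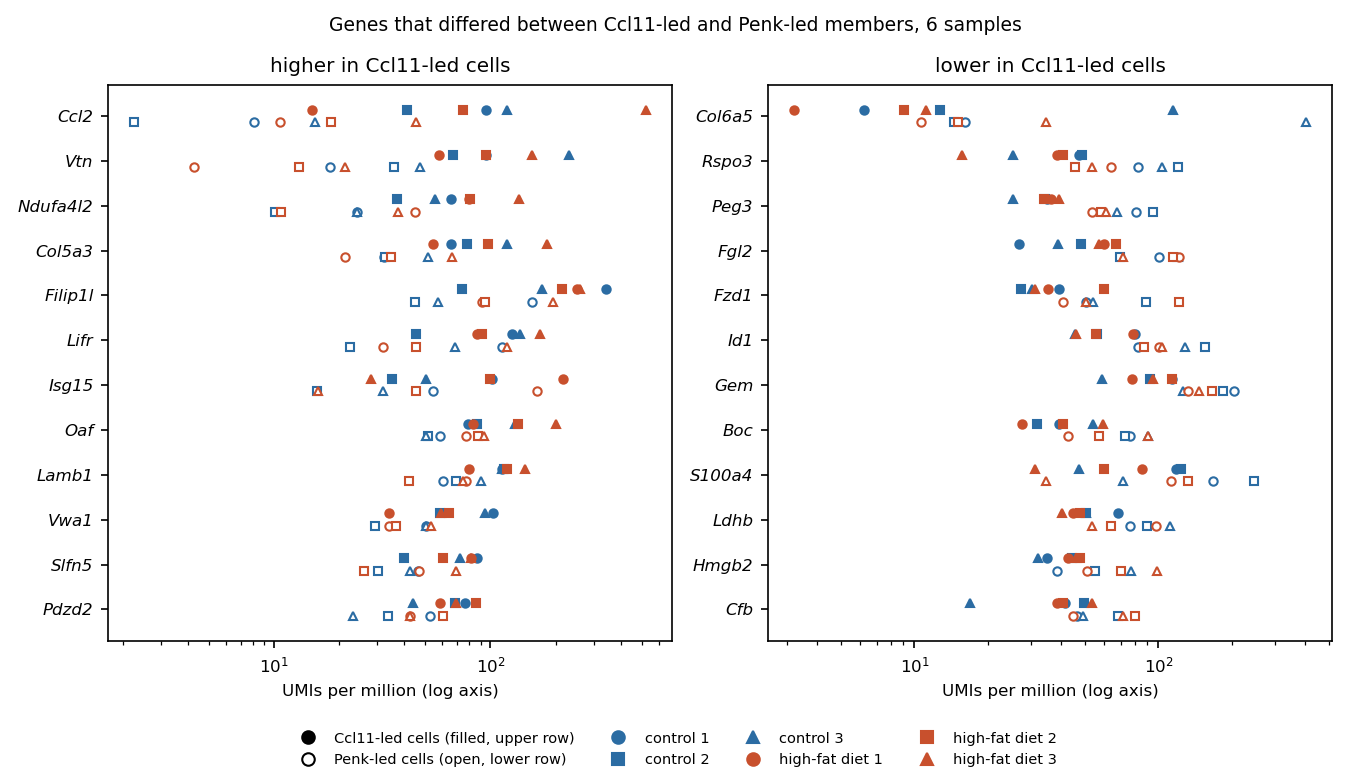
Levels (CPM, log axis) of the 12 higher and 12 lower genes with the largest differences between Ccl11-led (filled) and Penk-led (open) members, 1 symbol per sample. Ccl2 spans 14.9 to 526 CPM in Ccl11-led cells and 2.24 to 45.2 CPM in Penk-led cells, and within each sample the filled symbol is on the side that the panel names.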

How the data were processed

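Single-cell RNA from 6 aortic samples (3 per diet) was captured in droplets, and the authors deposited raw UMI counts per gene and cell as whole numbers. Cell Ranger 3.0 with the mm10 build is named, per the submitters' processing notes, and the annotation behind the counts is not given in the sources used here. Members and gene lists were chosen with earlier results of these data known. Counts were summed per sample and class (at least 20 cells, which left out 2 classes of control 3 and 1 of high-fat diet 3) and tested with edgeR 4.0.16 (quasi-likelihood, robust, TMM, low-count filter, Benjamini-Hochberg at 0.05) in R 4.3.3. Level differences are log2, and the rule's 25 genes stayed out of the class and lead calls. Shares were tested by exact two-sided permutation (scipy 1.17.1). Doublets were scored with Scrublet in scanpy 1.11.5 and kept.

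Genes named are the 20 markers, Klf2, Vcam1, the 12 higher and 12 lower called genes with the largest differences (mean of at least 50 CPM, or 20 CPM for diet, same direction in every sample or no overlap between diets), called list members, and per list at most 4 genes of smallest adjusted p. Other values were named after they were seen, and 1 called gene of the lead comparison is not reported here. The labels do not say that a number pairs samples, so numbers were not treated as pairs. Same-numbered samples had Pearson r of deviations over 2834 genes of -0.20, 0.04 and 0.05, and other pairs -0.44 to 0.36. Control 3 and high-fat diet 3 were nevertheless alike in their high posterior Hox levels. The tests were checked on simulated counts with known changes. Of 2-fold changes, 98% were recovered in the class, 58% in the diet, 37% in the interaction and 75% in the lead comparison. Of 4-fold changes 97% to 100% were recovered, with 3 to 8 false calls. The simulated counts had the same set spread for every gene and no sample effects, so recovery in the real data may differ. Alternatives were DESeq2 1.42.0, median-of-ratios factors, no filter, doublets out, limits of 10% mitochondrial UMIs, 1000 genes, a sum of 5 or a gate of 8 UMIs, thinning to 2000 UMIs, single wells, pooled rival classes, a replicate block and each sample left out. The fits without control 2 and 3, or without both samples numbered 3, were added later.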

Additional observations from a re-analysis of the deposited data

How the results depend on the processing

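The class comparison gave 368 higher and 271 lower genes after thinning to 2000 UMIs, 697 lower with the rival classes pooled and 185 lower without control 2 and 3. Leaving out each sample gave 402 to 514 higher and 220 to 400 lower. Fewer cells, UMIs or samples enter most of these fits.

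The diet comparison gave 31 higher and 18 lower genes with DESeq2, 52 and 23 without a filter on low counts, and 2 higher without both samples numbered 3. The number lower was 2 with a winning sum of at least 5, 1 with a gate of 8 and 1 after thinning, and leaving out each sample gave 0 to 22 higher and 0 to 20 lower. With the replicate number as a block there were 9 higher and 2 lower, 5 of them shared with the 6, and Hspa5 then had an edgeR adjusted p of 0.055. The cause of these shifts was not tested.

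Some diet differences near 0 changed sign. That of Ccl11 was 0.0137 without a filter, 0.00699 with a mitochondrial limit of 10%, 0.0116 with the replicate block, 0.153 in wells with suffix 2 and -0.16 to 0.16 with a sample left out. Srpx was 0.25 in wells with suffix 1, 0.0571 without both samples numbered 3 and -0.25 to 0.00098 with a sample left out. Steap4 was -0.0345 after thinning, -0.35 in wells with suffix 2, -0.00982 without both samples numbered 3 and -0.24 to 0.26 with a sample left out, and Vcam1 was -0.69 in wells with suffix 2. For the interaction, Klf2 was -0.0719 with a gate of 8 and -0.0587 to 0.184 with a sample left out. Vcam1 was 0.0509 with a gate of 8, 0.153 after thinning and -0.158 to 0.183 with a sample left out.

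The interaction gave 0 to 1 lower genes with a sample left out. Ccl11-led against Penk-led cells gave 26 higher and 31 lower genes with DESeq2, 174 and 213 without a filter, 49 and 48 with a gate of 8, 42 and 42 after thinning, and 62 to 97 higher and 50 to 79 lower with a sample left out. Of the 171 genes called above, 44 were shared with DESeq2, 80 with a gate of 8 and 53 after thinning. The largest adjusted p over all settings (edgeR or DESeq2) was 0.0877 for Ccl2, 0.134 for Vtn, 0.163 for Col6a5, 0.214 for Id1 and 0.39 for Cfb. For Rspo3, Peg3 and Klf2 it stayed at 0.0148, 0.00446 and 0.00366. The share difference was 0.391 points of all cells with every sample kept, and -10.5 to 4.72 points of fibroblasts with a sample left out.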

Other observations

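Some genes of lipid mediators and oxidant defence differed between Ccl11 Penk fibroblasts and the other fibroblast classes, in both directions. Of 19 antioxidant and metallothionein genes 2 were higher in members (Gpx3 and Txn1) and 3 lower (Gclm, Sod3 and Cat), with a median of 0.00. Gpx3, a secreted glutathione peroxidase, stood at 2753, 3012 and 3673 CPM in control members and 2740, 2014 and 2490 CPM in high-fat diet members, against 904 to 1316 CPM in the other classes. The members' levels did not overlap those means over the other classes, and the log2 difference was 1.42 (SE 0.13, edgeR adjusted p = 6.40e-07). Enpp2, which makes the lipid mediator lysophosphatidic acid outside the cell, was 105 to 214 CPM against 31.9 to 110 CPM (1.21, SE 0.25). Ptgis, which makes prostacyclin, was 90.5 to 205 CPM against 162 to 367 CPM (-0.84, SE 0.12). Of 13 prostanoid and lysophospholipid genes 3 were higher and 3 lower, so the list did not move one way.

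Receptors stood among the 71 genes called higher against each of the 4 rival classes, a list read after its values were known. Lifr, the receptor of leukaemia inhibitory factor, was 35.8 to 153 CPM in members and 21.1 to 55.7 CPM in the other classes (1.41, SE 0.13), and members were higher in 6 of 6 samples. The receptor of oncostatin M, Osmr, was higher by 0.84 (SE 0.11), the growth factor receptor Egfr by 0.85 (SE 0.10), and the sphingosine 1-phosphate receptor S1pr3 by 1.60 (SE 0.14). Kitl, the ligand of the mast cell receptor KIT, was higher by 1.08 (SE 0.13), and Agt, the gene of angiotensinogen, by 3.45 (SE 0.40). Immediate early genes, which cell isolation can also raise, were called higher in 6 of 18 genes and lower in 2, with Fos at 0.89 (SE 0.20) and Nr4a2 at -0.94 (SE 0.24).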
